A study of Mus musculus with 49 samples.

Results

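Mouse embryonic fibroblasts carrying HNF4a together with SOX2, KLF4 and MYC (SKM) were compared with fibroblasts of the same kind carrying CEBPa or GRB2 beside SKM. The comparison was defined by the array labels alone and used 6 of the 49 arrays of the series, 2 per group, and every gene measured. The groups are HNF4a+SKM, CEBPa+SKM and GRB2+SKM, with SKM beside an empty vector (SKM+EV) and fibroblasts with empty vector only (MEF1 EV) as side references on 2 arrays each. All were female fibroblasts labelled OGXICR and D13.5, prepared from limb and tail skin after the epidermis was peeled off, and factors were delivered by a doxycycline-inducible lentiviral system. SKM was therefore common to HNF4a+SKM, CEBPa+SKM, GRB2+SKM and SKM+EV. The series was designed around a search for reprogramming factors beyond the usual four-factor cocktail. The labels do not say when after infection RNA was taken, whether infected cells were selected, or whether the 2 arrays of a group came from separate cultures, so p-values measure only the spread between arrays.

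HNF4a is a nuclear receptor that binds DNA as a homodimer and maintains epithelial programmes of liver, gut, kidney proximal tubule and pancreatic islet, where its targets include apolipoprotein, clotting factor and brush border genes. CEBPa is a basic leucine zipper factor of hepatocytes, adipocytes and myeloid cells. GRB2 is not a transcription factor: it is an adaptor protein that couples activated receptor tyrosine kinases to RAS and the MAPK cascade.

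The 6 arrays resembled each other closely. Across 10108 genes the Pearson correlation between any pair of them lay between 0.987 and 0.995, whereas between these 6 and the other 17 arrays fitted with them it lay between 0.870 and 0.953. Their median intensities were 412.6 to 416.1, against 400.8 to 408.1 on the other 17 arrays. HNF4a+SKM, CEBPa+SKM and GRB2+SKM thus stood apart together from the other groups, and values of SKM+EV or of further groups are given below as descriptions only, without a test. With 2 arrays a group, precision is limited by that number.

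The introduced factors could not be checked on these arrays. Of the 12 genes encoding factors used in the SKM groups, 5 were measured: Grb2, Klf4, Pou5f1, Gata4 and Gata6. Hnf4a and Cebpa were not analysed here. Gata4 and Gata6 did not pass in HNF4a+SKM against the mean of CEBPa+SKM and GRB2+SKM, both at -0.11 on the log2 scale. Grb2 read 3450 and 3771 with HNF4a+SKM, 3471 and 4112 with CEBPa+SKM, and 2692 and 3072 on the arrays labelled GRB2+SKM, which were the lowest of the 6. Klf4, introduced in every SKM group, read 2086 and 1945 with HNF4a+SKM, 1956 and 1758 with CEBPa+SKM and 2075 and 2109 with GRB2+SKM, and was at 3590 ± 114 in MEF1 EV (SD, n = 2), above all groups given SKM. Where these probes lie relative to the introduced coding sequences is unknown, and neither value checks a label.

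Marker genes described the cells as fibroblasts. The summed intensity of 6 measured fibroblast markers (Col1a2, Col3a1, Pdgfra, Dcn, Twist2 and Prrx1) was 86731 to 86781 with HNF4a+SKM, 85596 to 91067 with CEBPa+SKM and 76708 to 79370 with GRB2+SKM, and none of the 6 passed the test. Some keratinocyte markers were also present: Krt5, Krt14 and Krt17 summed to 10656 to 11108 with HNF4a+SKM, 20059 to 23557 with CEBPa+SKM, 14373 to 14901 with GRB2+SKM, 65183 to 68206 with SKM+EV and 1483 to 1813 with MEF1 EV. Krt5 alone read 114 and 95 with HNF4a+SKM, 158 and 108 with CEBPa+SKM and 106 and 126 with GRB2+SKM. MEF1 EV read 266 and 329 for Krt5. In the groups compared Krt5 was thus below MEF1 EV, while Krt14 and Krt17 were above it. The only hepatocyte marker measured, Ahsg, read 343 to 346 with HNF4a+SKM, 422 to 426 with CEBPa+SKM and 386 to 428 with GRB2+SKM, so the group given HNF4a was not higher for it.

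Promoters of the genes that moved were examined for the sequence HNF4a is known to bind, a direct repeat whose core is CAAAGTCCA. A looser form, CAAAGNNCA, which includes the first, was searched as well, on both strands, in RefSeq promoters of build GRCm38.p6 around the annotated start site. Promoters were available for 8150 of the 10108 genes (10316 promoters). CAAAGTCCA lay in 0 of 86 promoters of genes that rose in HNF4a+SKM, against 0.436% of all these promoters. CAAAGNNCA lay in 3 of 86 promoters (3.49%) of genes that rose and in 3 of 39 (7.69%) of genes that fell, against 5.05% of all promoters. The C/EBP palindrome TTGCGCAA was in 1 of 86 promoters (1.16%) of risen genes, against 0.281% of all. Its looser form TTGCNNAA, which includes it, was in 6 of 86 (6.98%) of risen genes, against 8.59% of all. Of the 19 genes past 2-fold 16 had a promoter, and 4 of these (25%), Aqp11, Tkfc, C1qbp and Spink2, held CAAAGNNCA, against 6.05% of all genes with a promoter. These few genes were chosen by their change, and the shares are a description with no test. The stretches below show the match in Aqp11 and Tkfc, which rose, and in C1qbp, which fell, beside the promoter of Krt20, the strongest epithelial rise, which held no match. Capitals mark the match to CAAAGNNCA or to its reverse complement, and each line reads 5′ to 3′ along the gene's own strand.
Aqp11, chr7:97738369-97738497, minus strand: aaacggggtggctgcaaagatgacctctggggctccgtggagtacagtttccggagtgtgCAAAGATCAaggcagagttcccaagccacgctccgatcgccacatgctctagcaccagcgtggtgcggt
Tkfc, chr19:10604379-10604507, minus strand: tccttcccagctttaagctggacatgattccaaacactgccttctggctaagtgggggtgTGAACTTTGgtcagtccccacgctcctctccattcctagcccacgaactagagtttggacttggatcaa
C1qbp, chr11:70983202-70983276, minus strand: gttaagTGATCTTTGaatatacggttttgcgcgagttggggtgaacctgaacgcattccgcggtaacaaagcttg
Krt20, chr11:99438104-99438403, minus strand: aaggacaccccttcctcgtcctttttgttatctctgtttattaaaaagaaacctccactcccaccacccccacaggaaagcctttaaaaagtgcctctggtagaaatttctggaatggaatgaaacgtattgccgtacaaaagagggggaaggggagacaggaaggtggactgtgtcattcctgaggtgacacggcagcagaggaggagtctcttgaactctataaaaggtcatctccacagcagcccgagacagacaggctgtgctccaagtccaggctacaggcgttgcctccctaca
In Aqp11 the match CAAAGATCA began at position -190 relative to the start site, in Tkfc the match TGAACTTTG at -189 and in C1qbp the match TGATCTTTG at -244. A match is a run of letters and not a shown binding site, and a window without one says nothing about sites elsewhere in the gene.

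HNF4a+SKM differed from the mean of CEBPa+SKM and GRB2+SKM at 138 of 10108 genes (1.37%) by limma with Benjamini-Hochberg adjustment at 0.05. Of these, 92 were higher in HNF4a+SKM (0.91%) and 46 lower (0.455%). The changes were small: 16 genes rose and 3 fell at least 2-fold, while the smallest called rise was 0.34 and the smallest called fall -0.33 on the log2 scale. Of the called genes, 91 had both HNF4a+SKM arrays above the other 4 and 46 had both below, and 1, H2ac23, overlapped. The call rests on the same 6 arrays, so this describes the calls and adds no support to them. Over all genes 11.2% lay above and 14.3% below. Leaving out any 1 of the 6 arrays gave fewer calls: 31 without HNF4a+SKM replicate 1, 40 without HNF4a+SKM replicate 2, 79 without CEBPa+SKM replicate 1, 97 without CEBPa+SKM replicate 2, 81 without GRB2+SKM replicate 1 and 88 without GRB2+SKM replicate 2. With the spread taken from all 49 arrays the count was 46, and 21 of 44 called genes named singly lost the call, among them Lgals7, Krt14, Krt16, Amn, Ephx2, Plin2, Fn1, Spink2, Dck, Gss and Cldn3.

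**Figure D1:**
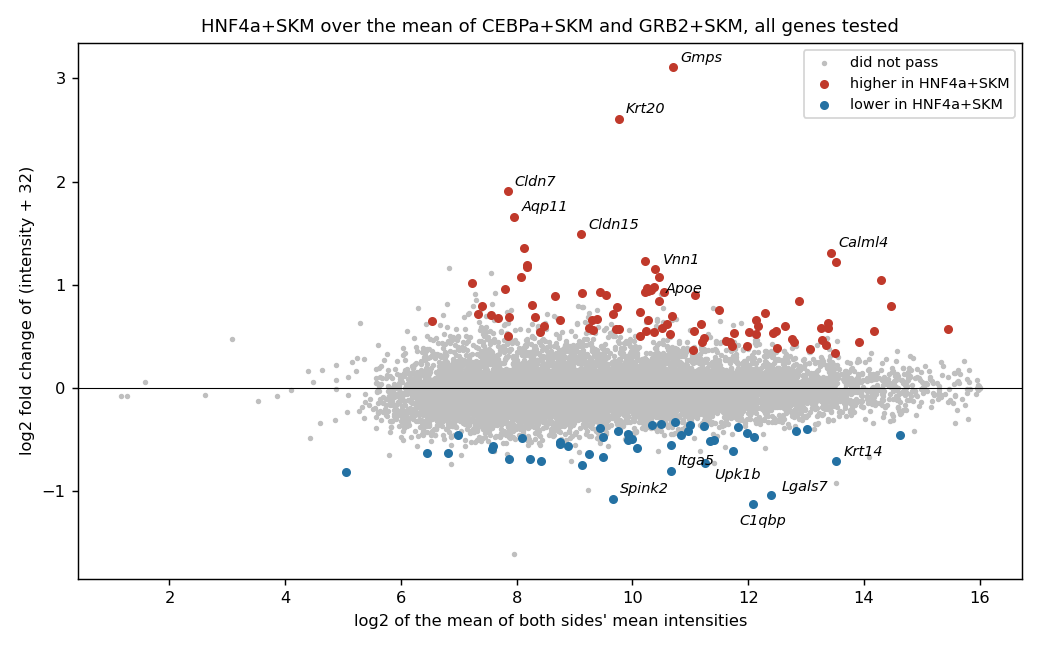
Log2 fold change of HNF4a+SKM over the mean of CEBPa+SKM and GRB2+SKM (vertical) against log2 of the mean intensity of both sides (horizontal) for the 10108 genes tested. Red points are the 92 genes that rose, blue points the 46 that fell at an adjusted p under 0.05, and grey points did not pass. Gmps and Krt20 stand above all other genes.

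Krt20 was the strongest change among epithelial genes. It encodes a keratin of the surface epithelium of gut and of urothelial umbrella cells. Its intensity was 1583 and 1451 with HNF4a+SKM, against 224 and 205 with CEBPa+SKM, 245 and 213 with GRB2+SKM and 432 and 389 with SKM+EV. Both HNF4a+SKM arrays lay far above the other 6, and the CEBPa+SKM and GRB2+SKM arrays overlapped each other. The mean was 1517 ± 93.2 in HNF4a+SKM (SD, n = 2) and 222 ± 17.4 over the 4 arrays of CEBPa+SKM and GRB2+SKM (SD, n = 4), a log2 fold change of 2.61 with a standard error of 0.13 (limma, adjusted p = 4.83e-09). Here and in the other comparisons a bulk array cannot tell more RNA per cell from more cells expressing the gene.

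A few cell junction genes rose beside it. Of 19 measured members of a list of claudins, desmosomal proteins and connexins, 4 rose and 0 fell: Cldn7, Cldn15, Dsc2 and Cldn3. The list's median log2 fold change was 0.01, against -0.02 over all genes, and the other 15 did not pass. Of all genes tested, 0.91% rose and 0.455% fell. The list was chosen with earlier results of these data known, so its 4 rises are a description. Cldn15, which forms cation pores between intestinal cells, read 794 and 861 with HNF4a+SKM, 283 and 247 with CEBPa+SKM, 300 and 264 with GRB2+SKM and 266 and 247 with SKM+EV (log2 fold change 1.49 ± 0.13, SE; limma, adjusted p = 2.62e-06). Cldn7, a claudin of many simple epithelia, was dimmer: 361 and 400 with HNF4a+SKM, 89 and 90 with CEBPa+SKM, 81 and 55 with GRB2+SKM and 64 and 108 with SKM+EV (1.91 ± 0.25, SE; adjusted p = 0.000337). In both genes the HNF4a+SKM arrays were the highest of the 8, without overlap. Cldn3 (0.54, adjusted p = 0.00852) and the desmosomal cadherin Dsc2 (0.69, adjusted p = 0.03) moved less, and the calls of both were lost without HNF4a+SKM replicate 1 or 2; that of Dsc2 also without CEBPa+SKM replicate 2 or GRB2+SKM replicate 2. Dsc2 read 284 and 304 with HNF4a+SKM but 380 and 314 with SKM+EV, so it was below that reference. Cldn3 read 420 and 399 with HNF4a+SKM and 336 and 327 with SKM+EV. Scaffold and gap junction genes gave values near 0: Tjp1 0.01, Jup 0.03, Gja1 -0.08 and Gjb2 -0.10.

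Calml4, Amn, Pls1, Aqp11 and Rab17 were also higher. Calml4, a calmodulin-like protein of the links between microvilli, read 15668 and 15980 with HNF4a+SKM, against 6420 and 5845 with CEBPa+SKM, 6757 and 6401 with GRB2+SKM and 5599 and 4836 with SKM+EV (1.31 ± 0.09, SE; limma, adjusted p = 8.5e-08). A second, dimmer probe for Calml4 gave 1.20. Both probes thus showed the same direction, and the HNF4a+SKM arrays did not overlap any other. Amn, the membrane anchor of the receptor cubilin in proximal tubule and ileum, was at 993 and 854 with HNF4a+SKM, 579 and 501 with CEBPa+SKM, 400 and 413 with GRB2+SKM and 1227 and 978 with SKM+EV (0.93, adjusted p = 0.00135). Its HNF4a+SKM values were above CEBPa+SKM and GRB2+SKM but within or below the range of SKM+EV, and its call was lost without HNF4a+SKM replicate 1. Pls1, an actin bundler of microvilli, read 411 and 411 with HNF4a+SKM, 142 and 166 with CEBPa+SKM, 164 and 187 with GRB2+SKM and 46 and 72 with SKM+EV (1.17, adjusted p = 0.00529), a call lost without either HNF4a+SKM array. Aqp11, a water channel of intracellular membranes in proximal tubule, read 377 and 411 with HNF4a+SKM, 100 and 102 with CEBPa+SKM and 106 and 101 with GRB2+SKM (1.66, adjusted p = 1.86e-06). Rab17, a GTPase of transport through polarised epithelial cells, read 365 and 388 with HNF4a+SKM, 137 and 207 with CEBPa+SKM, 130 and 179 with GRB2+SKM and 495 and 474 with SKM+EV (1.08, adjusted p = 0.000337). Of these, Aqp11 stood far above SKM+EV (78 and 62), while Rab17 stood below it. Pls1, Aqp11 and Rab17, and Tkfc, Tsr3 and Rhox9 below, were dimmer than the brightness limit of the rule for named genes and were chosen after their values were seen. A second probe for Rab17, at a mean of 64.8 in HNF4a+SKM and 51.1 in the other 4 arrays, gave 0.21.

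Most other gut and kidney genes measured did not pass the test. Of 15 measured members of the intestinal epithelium list, 1 rose (Krt20) and 1 fell (Tspan8), with a median log2 fold change of -0.05. Among all genes tested 0.91% rose and 0.455% fell, with a median of -0.02. The gut homeobox gene Cdx2 gave 0.10 (59 and 62 with HNF4a+SKM, 46 to 67 on the other 4 arrays), the intestinal cadherin Cdh17 -0.29 and the lectin Lgals4 -0.27, none past the test. Gpa33, a gut surface antigen, read 92 and 123 with HNF4a+SKM, 45 and 51 with CEBPa+SKM and 54 and 46 with GRB2+SKM. Those groups did not overlap, yet at this low intensity its difference of 0.78 had an adjusted p of 0.211. In the proximal tubule list 1 of 4 measured members rose, Amn, and the water channel Aqp1 gave -0.10 (adjusted p = 0.822).

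**Figure D2:**
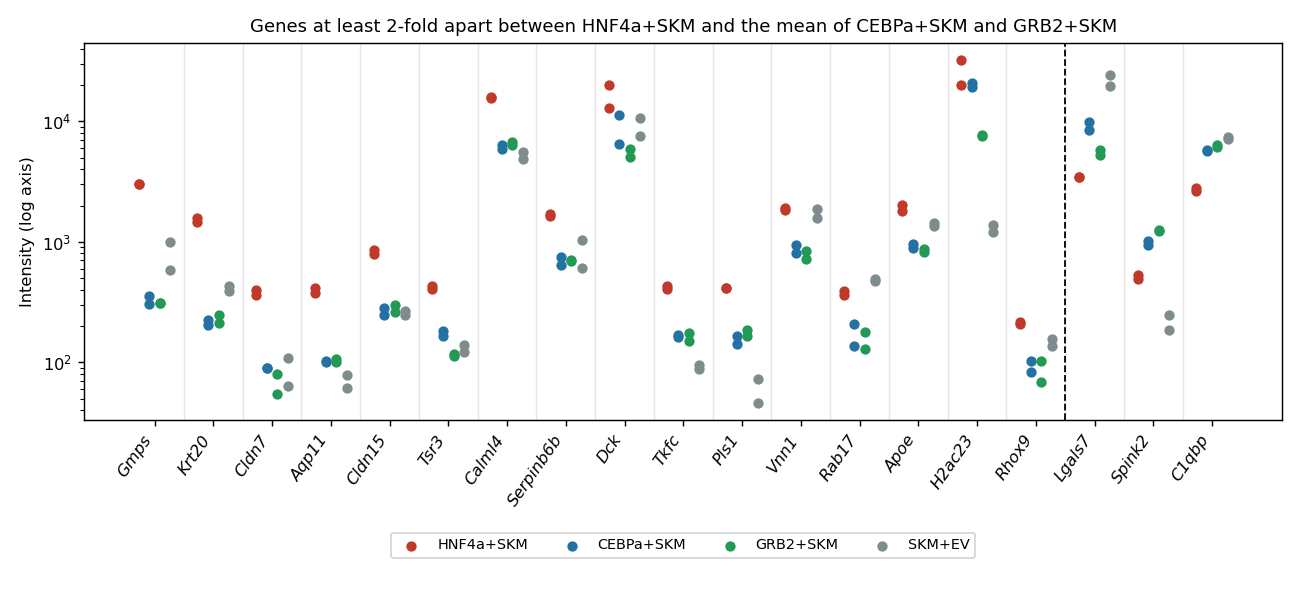
Intensity (log axis) on each array for the 19 genes that differed at least 2-fold between HNF4a+SKM and the mean of CEBPa+SKM and GRB2+SKM, ordered by log2 fold change, with SKM+EV as a side reference. Each dot is 1 array. The 16 genes left of the dashed line rose and the 3 right of it fell. Krt20 reads 1583 and 1451 with HNF4a+SKM and at most 245 with CEBPa+SKM or GRB2+SKM.

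Liver is the best known setting of HNF4a. Of 25 liver secreted proteins listed, 7 were measured. None of the 7 passed the test in either direction, and their median log2 fold change was 0.04. Over all genes 1.37% were called, and 1188 genes had an unadjusted p under 0.05. Vtn, the brightest of the 7, read 14698 and 16339 with HNF4a+SKM, 16390 and 15759 with CEBPa+SKM and 14837 and 15759 with GRB2+SKM (-0.02, limma, adjusted p = 0.979), and the groups overlapped. Trf, which encodes transferrin, gave 0.42 (adjusted p = 0.0892). Likewise 0 of 10 coagulation and complement genes, 0 of 4 islet genes and 0 of 2 gluconeogenesis genes passed. Those lists held 32, 12 and 9 symbols, most of them not measured. At a called share of 1.37%, the lack of a call in lists this short is no result about them.

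Apoe was the only call among 13 measured apolipoprotein and lipid transport genes, of which 1 rose and 0 fell. The shares over all genes were 0.91% and 0.455%. Apoe, the lipid carrier recognised by lipoprotein receptors, was at 1805 and 2032 with HNF4a+SKM, 965 and 885 with CEBPa+SKM, 828 and 876 with GRB2+SKM and 1440 and 1358 with SKM+EV (1.08 ± 0.09, SE; limma, adjusted p = 1.86e-06). The HNF4a+SKM arrays were highest, and SKM+EV stood between them and the other groups. Apoa2 read 240 and 275 with HNF4a+SKM against 140 to 189 on the other 4 arrays, without overlap (0.55, adjusted p = 0.292). Apoc1 (0.32), Mttp (0.08), Fabp1 (-0.07, at most 15 on any of the 6 arrays) and Scarb1 (0.00) did not pass.

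In each of 3 metabolic lists 1 gene rose, where over all genes 0.91% rose and 0.455% fell. Ephx2, the soluble epoxide hydrolase, read 1826 and 1775 with HNF4a+SKM, 1132 and 786 with CEBPa+SKM and 1197 and 910 with GRB2+SKM (0.84, limma, adjusted p = 0.00291). Cth, the last enzyme from methionine to cysteine, read 767 and 718 with HNF4a+SKM, 341 and 362 with CEBPa+SKM and 429 and 384 with GRB2+SKM (0.92, adjusted p = 0.000331). Plin2, a lipid droplet coat protein and PPAR target, read 3528 and 3715 with HNF4a+SKM, 2938 and 2936 with CEBPa+SKM and 2433 and 2264 with GRB2+SKM (0.46, adjusted p = 0.019). In all 3 the HNF4a+SKM arrays were above the other 4. With SKM+EV, Cth read 189 and 217 and Plin2 857 and 943, so all the groups compared lay above that reference for both. Ephx2 read 1179 and 1068 with SKM+EV, within the range of CEBPa+SKM and GRB2+SKM. Of 10 xenobiotic and bile genes 1 rose (Ephx2) and 1 fell (Gsta3, a glutathione S-transferase, at -0.59, adjusted p = 0.03), of 8 amino acid genes 1 rose and of 14 fatty acid oxidation and PPAR genes 1 rose. The calls of Ephx2, Gsta3 and Plin2 were lost without either HNF4a+SKM array, those of Gsta3 and Plin2 also without either CEBPa+SKM array or GRB2+SKM replicate 2, and that of Gsta3 without GRB2+SKM replicate 1, whereas Cth kept its call without each of the 6 in turn.

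Outside these lists the largest rise of all was Gmps, GMP synthetase, which makes guanine nucleotides. It read 2992 and 3024 with HNF4a+SKM, 306 and 355 with CEBPa+SKM, 309 and 311 with GRB2+SKM and 584 and 998 with SKM+EV (3.11 ± 0.16, SE; limma, adjusted p = 4.83e-09). The HNF4a+SKM arrays were far above those of the other groups just named, and CEBPa+SKM and GRB2+SKM overlapped. Gmps rests on 1 probe, which read only 23.3 and 28.5 with MEF1 EV but 12200 and 13800 with GATA6+SKM. Whether that probe reads Gmps alone was not tested. Vnn1, a pantetheinase that releases vitamin B precursors, read 1836 and 1891 with HNF4a+SKM, 940 and 804 with CEBPa+SKM, 841 and 723 with GRB2+SKM and 1885 and 1569 with SKM+EV (1.15 ± 0.12, SE; adjusted p = 2.07e-05). Serpinb6b, an intracellular protease inhibitor, read 1648 and 1706 with HNF4a+SKM, 636 and 749 with CEBPa+SKM, 694 and 713 with GRB2+SKM and 612 and 1043 with SKM+EV (1.23, adjusted p = 0.000921). For Vnn1, then, HNF4a+SKM was level with SKM+EV, and it was CEBPa+SKM and GRB2+SKM that were lower than that reference. Pla1a, a phospholipase acting on phosphatidylserine, was just below SKM+EV on both HNF4a+SKM arrays: 1626 and 1609 with HNF4a+SKM, 900 and 841 with CEBPa+SKM, 757 and 753 with GRB2+SKM and 1823 and 1654 with SKM+EV (0.97, adjusted p = 1.98e-05).

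Further rises included Dck, deoxycytidine kinase of nucleoside salvage, at 12826 and 19860 with HNF4a+SKM, 6439 and 11309 with CEBPa+SKM and 5037 and 5902 with GRB2+SKM (1.22, limma, adjusted p = 0.0187). In every group of Dck replicate 2 exceeded replicate 1, and the lower HNF4a+SKM array was close to the higher CEBPa+SKM one. Its call was lost without HNF4a+SKM replicate 2, CEBPa+SKM replicate 1 or GRB2+SKM replicate 1. Tkfc, which phosphorylates trioses of fructose breakdown, read 427 and 404 with HNF4a+SKM, 163 and 169 with CEBPa+SKM and 175 and 151 with GRB2+SKM (1.19, adjusted p = 0.000337). Tsr3, an enzyme that modifies ribosomal RNA, read 426 and 405 with HNF4a+SKM, 166 and 182 with CEBPa+SKM and 113 and 117 with GRB2+SKM (1.36, adjusted p = 0.000564). Both kept clear of the other 4 arrays. Gss, glutathione synthetase (0.94, adjusted p = 0.03), and Ppp4c, the catalytic subunit of a protein phosphatase (0.95, adjusted p = 0.00606), lost their calls without either HNF4a+SKM array, and Gss also without CEBPa+SKM replicate 1 or either GRB2+SKM array. Ppp4c read 1619 and 1767 with HNF4a+SKM, 980 and 843 with CEBPa+SKM and 849 and 770 with GRB2+SKM, but 94.5 and 79.8 with SKM+EV. Gss read 275 and 435 with SKM+EV. For both genes all the groups compared thus lay above that reference. The homeobox gene Rhox9 (1.02, adjusted p = 0.00237) lost its call without HNF4a+SKM replicate 1.

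The falls included genes of stratified epithelium. Of 12 measured basal and stratified keratinocyte genes, 0 rose and 3 fell (Lgals7, Krt14 and Krt16), 7 had both HNF4a+SKM arrays below the other 4, and the median log2 fold change was -0.37. Over all genes 0.455% fell, 14.3% lay below and the median was -0.02. The list was chosen with earlier results of these data known, so the difference is a description. Lgals7, a galectin of stratified epithelia, read 3448 and 3472 with HNF4a+SKM, 9871 and 8431 with CEBPa+SKM, 5751 and 5230 with GRB2+SKM and 24106 and 19529 with SKM+EV (-1.03 ± 0.10, SE; limma, adjusted p = 2.07e-05). Krt14, the basal layer keratin, read 9044 and 8522 with HNF4a+SKM, 16234 and 18564 with CEBPa+SKM, 11842 and 12055 with GRB2+SKM and 51161 and 46556 with SKM+EV (-0.71, adjusted p = 0.0055). The order was the same in both genes, with HNF4a+SKM lowest, GRB2+SKM next, CEBPa+SKM above it and SKM+EV highest, and no groups overlapped. Krt16, a keratin of stressed epidermis, read 580 and 519 with HNF4a+SKM, 967 and 950 with CEBPa+SKM, 871 and 799 with GRB2+SKM and 5817 and 5338 with SKM+EV (-0.67, adjusted p = 0.00198). Krt17 was also lowest with HNF4a+SKM, at 1949 and 2039, against 3666 and 4885 with CEBPa+SKM and 2424 and 2720 with GRB2+SKM, but did not pass (-0.72, adjusted p = 0.113), and neither did Pkp1 (-0.50), Perp (-0.38) or Krt5 (-0.19). Krt6a (0.14) and Sfn (0.18) lay between the other groups. The call of Krt14 was lost without either HNF4a+SKM array and that of Krt16 without HNF4a+SKM replicate 2. Of 15 cornified envelope genes, which mark later layers, none passed (median -0.07).

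Whether these keratinocyte genes fell within fibroblasts or through fewer epithelial cells cannot be told apart on bulk arrays. Of 9 measured simple epithelium genes none passed, where 1.37% of all genes did. Krt8 and Krt19 summed to 2808 to 2930 with HNF4a+SKM, 2722 to 2974 with CEBPa+SKM and 1943 to 2075 with GRB2+SKM. For this sum HNF4a+SKM overlapped CEBPa+SKM and lay above GRB2+SKM. The sum was 8805 to 13038 with SKM+EV, above all the groups compared. The 3 measured endothelial markers summed to 186 to 218 with HNF4a+SKM, 205 to 244 with CEBPa+SKM and 163 to 227 with GRB2+SKM, which overlapped. The 4 measured macrophage markers summed to 774 to 889 with HNF4a+SKM, 914 to 950 with CEBPa+SKM and 751 to 805 with GRB2+SKM, and no marker of either type passed the test.

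Among other genes that fell, C1qbp, a protein of the mitochondrial matrix, had the largest change. It read 2804 and 2650 with HNF4a+SKM, 5629 and 5748 with CEBPa+SKM, 6415 and 6164 with GRB2+SKM and 7455 and 7084 with SKM+EV (-1.12 ± 0.11, SE; limma, adjusted p = 1.98e-05). Itga5, the alpha chain of the fibronectin receptor, read 1288 and 1060 with HNF4a+SKM, 1794 and 1964 with CEBPa+SKM, 2295 and 2225 with GRB2+SKM and 2797 and 2735 with SKM+EV (-0.80, adjusted p = 4.4e-05). In both the HNF4a+SKM arrays were the lowest of the 8. Fn1, the ligand of that receptor, read 6369 and 6630 with HNF4a+SKM, 5292 and 4413 with CEBPa+SKM and 4187 and 4205 with GRB2+SKM (0.53, limma, adjusted p = 0.0127). It read 724 and 602 with SKM+EV, so all the groups compared lay far above that reference. Fn1 was the only 1 of 25 measured fibroblast genes to pass, where 1.37% of all genes did. Spink2, a serine protease inhibitor, read 491 and 527 with HNF4a+SKM, 936 and 1023 with CEBPa+SKM and 1244 and 1240 with GRB2+SKM, but 184 and 246 with SKM+EV (-1.07, adjusted p = 0.00291). HNF4a+SKM thus lay between SKM+EV and the other groups for Spink2. Upk1b, a tetraspanin of the urothelial plaque, gave -0.72 (adjusted p = 0.00634) and Tspan8, a tetraspanin of gut and other epithelia, -0.64 (adjusted p = 0.0349). The calls of Upk1b and Tspan8 were lost without either HNF4a+SKM array, that of Tspan8 also without either CEBPa+SKM or either GRB2+SKM array, and those of Spink2 and Fn1 without HNF4a+SKM replicate 1; Fn1 also lost its call without HNF4a+SKM replicate 2 or CEBPa+SKM replicate 2.

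Further falls were seen in Them6 (-0.74, limma, adjusted p = 0.00971), Pcolce2, an enhancer of procollagen processing (-0.61, adjusted p = 0.0135), Pi16, a peptidase inhibitor of fibroblasts (-0.58, adjusted p = 0.0208), and Stmn2, a microtubule regulator of neurons (-0.55, adjusted p = 0.0179). Pcolce2 read 2797 and 2613 with HNF4a+SKM but 2058 and 2515 with SKM+EV, and Stmn2 1408 and 1206 but 688 and 579. For both, HNF4a+SKM thus lay between SKM+EV and the other groups, whereas Them6 and Pi16 were higher with SKM+EV than with HNF4a+SKM. All 4 genes had both HNF4a+SKM arrays below the other 4 arrays compared, and all 4 calls were lost without either HNF4a+SKM array. Pcolce2 and Pi16 also lost theirs without GRB2+SKM replicate 1, Pi16 without CEBPa+SKM replicate 1, and Stmn2 without CEBPa+SKM replicate 2 or GRB2+SKM replicate 2. No collagen passed, where 1.37% of all genes did: 0 of 19 were called, with a median of 0.01, and Col1a2 gave 0.01.

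Growth, stress and immune lists gave at most 1 call in either direction, where over all genes 0.91% rose and 0.455% fell. None of 21 cell cycle genes, 0 of 19 MAPK feedback and immediate early genes, 0 of 12 glycolysis genes and 0 of 12 cholesterol synthesis genes passed. Gadd45a, a growth arrest gene induced by DNA damage, rose in HNF4a+SKM, reading 1718 and 1823, against 877 and 1092 with CEBPa+SKM and 762 and 837 with GRB2+SKM (0.98, limma, adjusted p = 0.0055). Mdm2, the ubiquitin ligase of p53, fell, at 2820 and 3462 with HNF4a+SKM, 4013 and 3686 with CEBPa+SKM and 4596 and 4042 with GRB2+SKM (-0.38, adjusted p = 0.0483). Those 2 were the calls among 12 p53 and senescence genes, and they pointed in opposite directions. The interferon-induced chemokine Cxcl10 rose (0.66, adjusted p = 0.0139), alone among 26 interferon response genes, and Il18 fell (-0.45, adjusted p = 0.0199), alone among 23 chemokines and cytokines. Cxcl10 read 584 and 479 with HNF4a+SKM but 736 and 646 with SKM+EV, so it was below that reference. Ceruloplasmin (Cp) had the lowest log2 value of all genes at -1.61, which came from a reading of 3 on HNF4a+SKM replicate 2 against 344 on replicate 1 (adjusted p = 0.19). The calls of Gadd45a, Cxcl10 and Il18 were lost without either HNF4a+SKM array, and that of Cxcl10 also without GRB2+SKM replicate 2. Il18 lost its call also without CEBPa+SKM replicate 1 or either GRB2+SKM array, and Mdm2 lost its own without HNF4a+SKM replicate 1, either CEBPa+SKM array or either GRB2+SKM array. In all, Mdm2 lost its call in 13 of 18 alternatives.

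Pou5f1, which encodes OCT4, was called among 10 measured pluripotency genes, 1 of which rose and 0 fell. It read 213 and 202 with HNF4a+SKM, 131 and 123 with CEBPa+SKM, 96 and 108 with GRB2+SKM and 129 and 108 with SKM+EV (0.72, limma, adjusted p = 0.0376). The level was low, and MIXL1+SKM (223 ± 7.75, SD, n = 2) was as high. MEF1 EV, without any factor, read 197 and 148, so 1 of its arrays came close to HNF4a+SKM. OCT4+SKM, which was given OCT4 itself, read only 158 and 170, so this probe did not follow the introduced factor. Other pluripotency genes did not pass, with Esrrb at 0.62 (adjusted p = 0.233), Utf1 at -0.06 and Klf4 at 0.03. The call of Pou5f1 was lost without each of the 6 arrays in turn. None of 10 mesendoderm, 14 endothelial, 9 muscle, 10 adipocyte or 13 macrophage genes passed, where 1.37% of all genes did.

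**Figure D3:**
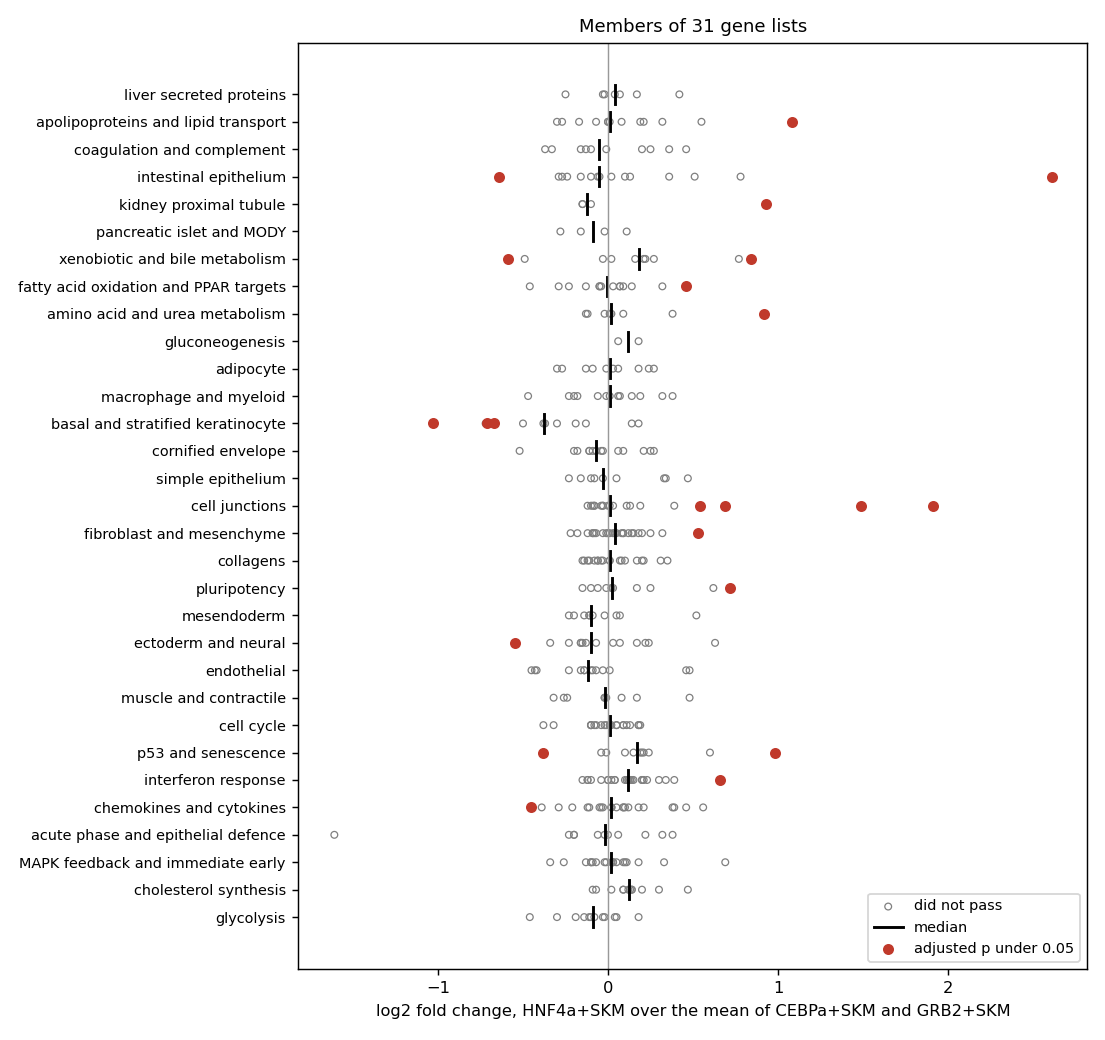
Log2 fold change of HNF4a+SKM over the mean of CEBPa+SKM and GRB2+SKM for the measured members of 31 gene lists. Filled red points passed at an adjusted p under 0.05, open points did not, and bars mark list medians. In 17 lists no member passed, and the keratinocyte list has the lowest median, -0.37.

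Over the 31 lists 22 of 396 measured genes were called (5.56%), against 1.37% of all genes. The lists were chosen with earlier results of these data known, so the difference is no result about them. Of the 138 called genes 116 were in no list. In 17 lists no member passed.

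Set against CEBPa+SKM alone, HNF4a+SKM differed at 71 genes (0.702%), with 40 higher (0.396%) and 31 lower (0.307%). Against GRB2+SKM alone it differed at 195 genes (1.93%), with 131 higher (1.3%) and 64 lower (0.633%). These comparisons share the HNF4a+SKM arrays, and the difference between their counts was not tested. Krt20 gave 2.65 against CEBPa+SKM and 2.57 against GRB2+SKM, Gmps 3.07 and 3.15, Cldn15 1.53 and 1.45, Calml4 1.36 and 1.26, Apoe 1.03 and 1.14, and C1qbp -1.05 and -1.20 in the same order, all past the test in both (limma). For these genes the values against either group lay close together. For Lgals7 they lay further apart: it gave -1.39 against CEBPa+SKM and -0.66 against GRB2+SKM (adjusted p = 4.81e-06 and 0.00692), and CEBPa+SKM and GRB2+SKM differed for it. Krt14, Krt17 and Krt16 did not pass between CEBPa+SKM and GRB2+SKM: Krt14 gave -0.98 against CEBPa+SKM and -0.44 against GRB2+SKM (adjusted p = 0.00224 and 0.157), Krt17 -1.07 and -0.36 (adjusted p = 0.0447 and 0.601) and Krt16 -0.77 and -0.58 (adjusted p = 0.00348 and 0.0179) in the same order. In the list as a whole 4 of 12 fell against CEBPa+SKM and 3 of 12 against GRB2+SKM, with medians of -0.55 and -0.29. Without single arrays the count against CEBPa+SKM was 21 (HNF4a+SKM replicate 1), 15 (HNF4a+SKM replicate 2), 19 (CEBPa+SKM replicate 1) and 18 (CEBPa+SKM replicate 2), and the count against GRB2+SKM was 46, 50, 53 (GRB2+SKM replicate 1) and 61 (GRB2+SKM replicate 2). The call of Krt17 against CEBPa+SKM was lost without each of the 6 arrays in turn, and that of Krt14 without HNF4a+SKM replicate 2 or CEBPa+SKM replicate 2.

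CEBPa+SKM and GRB2+SKM, the groups behind the mean, differed between themselves at 32 genes (0.317%), 16 in each direction (0.158%). H2ac23, a replication-dependent histone H2A gene with near-identical copies that a probe may not separate, read 32386 and 20187 with HNF4a+SKM, 19380 and 20613 with CEBPa+SKM and 7586 and 7719 with GRB2+SKM. It was 1.38 higher on the log2 scale in CEBPa+SKM than in GRB2+SKM (limma, adjusted p = 0.00195) and 1.74 higher in HNF4a+SKM than in GRB2+SKM (adjusted p = 2.25e-05), while HNF4a+SKM and CEBPa+SKM overlapped. With SKM+EV H2ac23 read 1380 and 1202, below all the groups compared. Asprv1, a protease of the upper epidermis, read 2059 and 1995 with CEBPa+SKM and 955 and 962 with GRB2+SKM (1.06, adjusted p = 0.000911), with HNF4a+SKM between them at 1223 and 1371. Lgals7 was also higher in CEBPa+SKM than in GRB2+SKM (0.73, adjusted p = 0.0156). Lower in CEBPa+SKM were Rsrp1 (3353 and 3292 with CEBPa+SKM, 6212 and 5988 with GRB2+SKM; -0.87, adjusted p = 0.00263), Clk1, a kinase of splicing factors (-0.76, adjusted p = 0.00676), Usp18, a protease that removes ISG15 (-0.76, adjusted p = 0.0372), and Alkal1, a ligand of the receptor ALK (-0.71, adjusted p = 0.0372). The remaining named rises were 2300002M23Rik (0.86, adjusted p = 0.0287) and Abcf2 (0.75, adjusted p = 0.0287). The count was 19 without either HNF4a+SKM array, 7 without CEBPa+SKM replicate 1, 3 without CEBPa+SKM replicate 2, 1 without GRB2+SKM replicate 1 and 6 without GRB2+SKM replicate 2, and of the 8 genes the rule named for it only the call of Asprv1 held in all of these.

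Across the 11 groups fitted together, HNF4a+SKM was highest for some of its genes and not for others. Of its 92 risen genes, 54 had both arrays above all 21 other arrays (5.26% of all genes did), and of the 46 fallen genes 14 had both below all 21 (2.93% of all genes did). The risen and fallen genes were chosen on 4 of those 21 arrays, so nothing is read from these shares. Krt20, Calml4, Aqp11, Tkfc, Cldn7, Tsr3, Pls1 and Gadd45a ranked first by mean. For Krt20 the next group was GATA6+SKM, at 1310 ± 56.7 (SD, n = 2), close to the 1517 ± 93.2 of HNF4a+SKM. GATA6+SKM was higher than HNF4a+SKM for Cldn15 (1890 ± 21.9), Gmps (13000 ± 1160), Vnn1 (16500 ± 1360) and Serpinb6b (18500 ± 1800, SD, n = 2 each). Apoe was highest in MEF1 EV (2540 ± 85.1). Against SKM+EV, 80 of the 92 risen genes were higher on both HNF4a+SKM arrays and 8 lower. Of the 46 fallen genes 35 were lower and 6 higher. These counts carry the distance between the 6 arrays and the others. The matching shares over all genes were not counted, so nothing is read from these counts either.

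**Figure D4:**
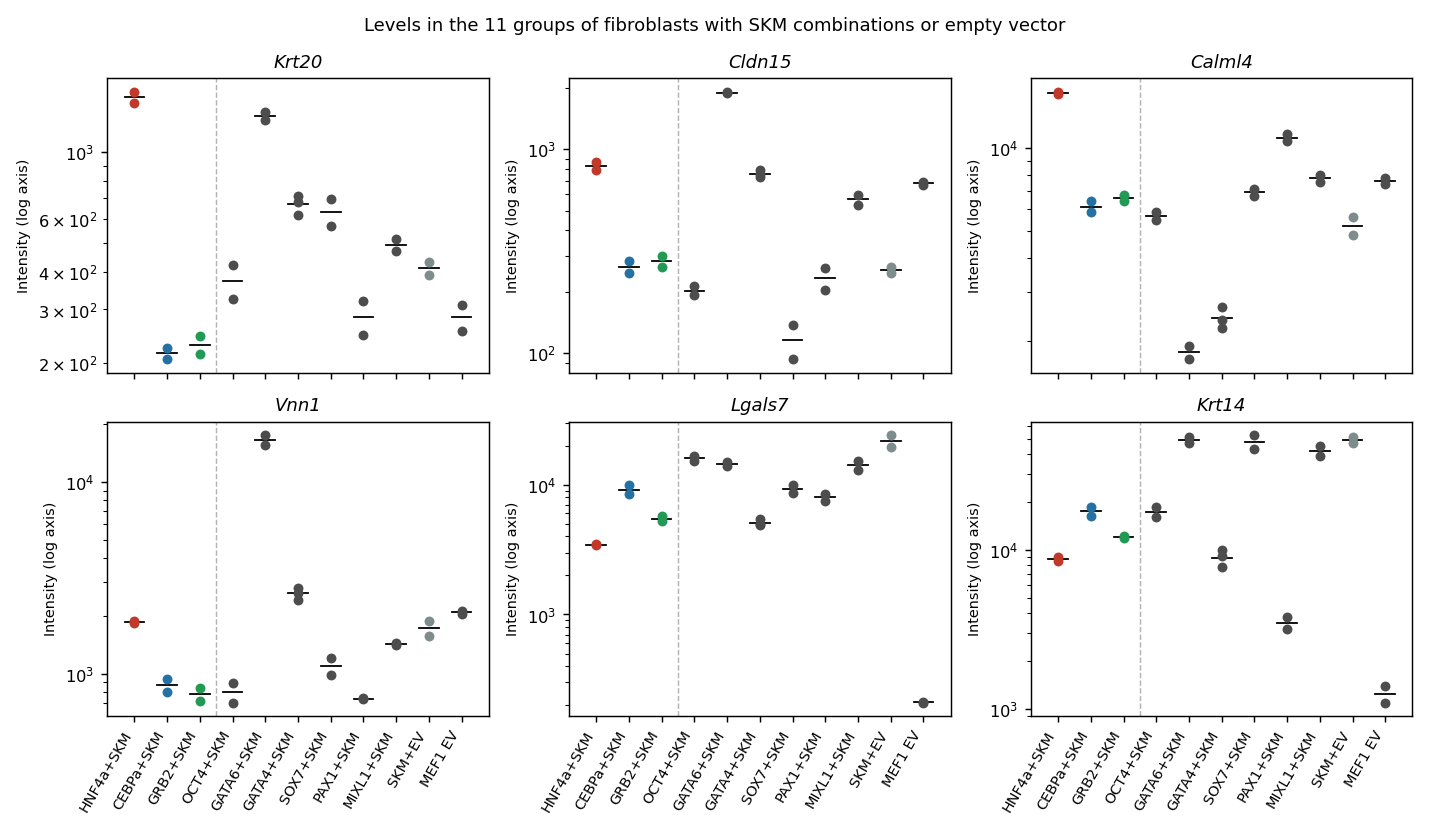
Intensity (log axis) on every array in 11 groups for 4 genes that rose (Krt20, Cldn15, Calml4, Vnn1) and 2 that fell (Lgals7, Krt14) in HNF4a+SKM. Dots are arrays, bars are group means, and the dashed line parts the 3 groups compared from the others. Krt20 is also high in GATA6+SKM, and Lgals7 and Krt14 are higher in SKM+EV than in any of the 3 groups left of the line.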

How the data were processed

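Total RNA of each sample was labelled with Cy5 and hybridised to a one-colour array. The authors deposited a linear intensity per probe and array. How these were scanned, corrected for background and normalized is not stated in the labels; 5 values below 0 occur in the arrays used. The 23 arrays of MEF1 EV and the SKM groups (11 groups), were fitted together because the same 14562 probes hold values in them (the labels name no such set), and only the 6 arrays compared entered a contrast. Of 19426 probes, 15539 carried 1 gene symbol in the platform annotation and 3887 none. Symbols were updated through RefSeq (1538 by synonym). Of the probes with a symbol, 11111 had a value on all 23 arrays and were kept. The 919 genes with several such probes were represented by the brightest, leaving 10108 genes. Genes without such a probe count as not measured here.

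Values were taken as log2(intensity + 32), so changes of dim genes are understated. Group means were fitted with limma 3.58.1 in R 4.3.3, with an intensity trend in the variance (12 residual degrees of freedom), two-sided tests and Benjamini-Hochberg adjustment over all genes at 0.05. The procedure was tested on simulated data, with 200 of 10108 genes changed in each of 10 draws and random noise of each gene's own spread. It recovered 42.6% of changes of 0.5 on the log2 scale, 88.5% of 1 and 99.4% of 2. A mean of 6.5 unchanged genes were called. Many changes of about 0.5 would thus be missed, and a gene that did not pass is not shown to be unchanged. The simulated noise was normal, independent between arrays and of 1 spread per gene in all groups, as the fit assumes. The 6.5 is therefore no estimate of false calls among the 138. Named genes were the 12 largest rises and 12 largest falls of the main comparison that passed, did not overlap and were brighter than 665.3 on their brighter side, the 4 largest of each direction in each pair of groups, factor genes, and up to 4 called members of each list. Alternatives were other spreads, pseudocounts, filters, scalings, probe summaries, a replicate block and leaving out each array. The genes, lists and rules were chosen with earlier results of these data known.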

Additional observations from a re-analysis of the deposited data

How the results depend on the processing

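No gene named as called changed direction in any of 18 alternatives. Some named genes that did not pass crossed 0, such as Hp (-0.20, range -0.50 to 0.11) and Pklr (0.11, range -0.14 to 0.37). Of 44 named or 2-fold genes called in HNF4a+SKM against the mean of CEBPa+SKM and GRB2+SKM, 16 were called in all 18 (Gmps, Krt20, Cldn7, Cldn15, Aqp11, Calml4, Tsr3, Serpinb6b, Tkfc, Vnn1, Apoe, Rab17, Pla1a, Cth, C1qbp and Itga5), and 28 lost the call in at least 1. The counts depended on where the spread came from. With the spread of all 49 arrays they were 46 for the main comparison (138 as reported), 29 against CEBPa+SKM (71), 63 against GRB2+SKM (195) and 6 between CEBPa+SKM and GRB2+SKM (32). With the 6 arrays alone they were 459, 273, 458 and 136 in the same order. Leaving out 1 array gave 31 to 97, 15 to 58, 46 to 149 and 1 to 19. With all 49 arrays 21 of the 44 lost the call: Dck, Gss, Spink2, Lgals7, Them6, Krt14, Krt16, Tspan8, Pcolce2, Pi16, Stmn2, Amn, Ephx2, Gsta3, Plin2, Cldn3, Fn1, Pou5f1, Mdm2, Cxcl10 and Il18. The cause was not tested. Replicate numbers were shared between the groups, but deviations of same-numbered arrays correlated at 0.07, 0.12 and 0.21 in the 3 pairs of groups, so they were not taken as pairs. A replicate block gave 106, 48, 130 and 10 calls, and with the 6 arrays alone, an alternative chosen after seeing the data, 569, 373, 575 and 213. The remaining settings (a smaller and a larger pseudocount, a minimum intensity, quantile normalization, median centring, the mean of all probes, no intensity trend, and the 4 arrays as 1 group) kept every count within 1.5 times. Dim genes and the 2 arrays per group limit the smallest change that can be called.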

Other observations

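Other genes that rose in HNF4a+SKM stood outside the lists and were picked after their values were seen, without a test beyond the fit over all genes (limma). Cideb, a lipid droplet protein of hepatocytes, read 292 and 318 with HNF4a+SKM, 149 and 148 with CEBPa+SKM and 113 and 157 with GRB2+SKM (log2 fold change 0.96, adjusted p = 0.00613). As3mt, which methylates arsenic in liver, read 552 and 519 with HNF4a+SKM, 318 and 360 with CEBPa+SKM and 219 and 220 with GRB2+SKM (0.89, adjusted p = 0.000815). Pxmp2, a channel of the peroxisomal membrane, read 988 and 983 with HNF4a+SKM, 542 and 496 with CEBPa+SKM and 544 and 476 with GRB2+SKM (0.90, adjusted p = 0.000114). All 3 had the HNF4a+SKM arrays above the other 4. The microvillar scaffold gene Slc9a3r1 gave 0.62 (adjusted p = 0.00971), the membrane-anchored carbonic anhydrase Car4 0.65 (adjusted p = 0.0411), sorbitol dehydrogenase (Sord) 0.56 (adjusted p = 0.0179) and the xylulose reductase Dcxr 0.45 (adjusted p = 0.0121).

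Gene families read from symbols were counted as a description, also after values were seen. Over all genes 0.91% rose and 0.455% fell. Of 57 measured subunits of the respiratory chain and ATP synthase, 4 rose (Uqcr11 0.93, Uqcrq 0.58, Ndufa12 0.47 and Ndufa11 0.42) and 0 fell, with a median of 0.07. Uqcr11 had a mean of 1946 with HNF4a+SKM, 1233 with CEBPa+SKM, 819 with GRB2+SKM and 244 with SKM+EV. Uqcrq had means of 11685, 8937, 6802 and 2557 in the same order. For both, CEBPa+SKM and GRB2+SKM thus also lay above SKM+EV. Of 13 claudins 3 rose and 0 fell (median 0.11), of 21 keratins 2 rose (Krt20 and Krt88) and 2 fell (Krt14 and Krt16), and of 9 cathepsins 1 rose (Ctsd, 0.55). Of 29 ribosomal protein genes 1 rose (Rpl29, 0.55), with a median of 0.00. Among called genes with several probes, 5 had a second probe that gave a value near 0 or of the other sign: Hmgb2 0.93 on the brighter probe and -0.01 on the other, Pakap 0.60 and -0.15, Faap20 0.51 and -0.20, Nsd2 -0.50 and -0.08, and Runx1 -0.36 and 0.20.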
